A study of Mus musculus with 2 samples.

Results

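The 6 genes described here are Mir15a, Mir16-1, Mir15b, Mir16-2, Mir195a and Mir497, genes of the miR-15/16 family in 3 autosomal clusters. They were chosen by gene name and not by level, and they are 6 of the 1973 gene rows counted; Mir497 was read from the row of its opposite-strand partner Mir497b. They lie in 3 neighbouring pairs, Mir15a with Mir16-1 on chromosome 14, Mir15b with Mir16-2 on chromosome 3, and Mir195a with Mir497 on chromosome 11. MicroRNAs were sequenced from whole liver of B6NCrl mouse embryos at embryonic day 16.5, with male and female embryos pooled. There was 1 group of 2 biological replicates. The replicate 2 pool came from 41 embryos, and no embryo number is given for replicate 1. No treatment or genotype was compared, so the values below describe how abundant these genes were and how far the pools differed.

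A miRNA is cut from a hairpin precursor and guides repression of messenger RNAs that pair with its seed, bases 2 to 8 of the mature strand. The miR-15/16 family is known as a brake on the cell cycle and on survival, through targets such as cyclins and Bcl2. The human counterpart of the Mir15a locus is often deleted in chronic lymphocytic leukaemia, and the family is also known for a part in the growth arrest of heart muscle cells after birth in mice. The fetal liver is a site of both proliferating hepatocyte precursors and blood formation. Reads of whole liver cannot tell in which cells these genes were expressed, nor separate fewer cells of a type from less RNA per cell.

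All 6 genes were found in the RefSeq miRNA table (GRCm38.p6), and their 5′ products are shown because they share a seed and set which reads can be told apart. Capitals mark the seed.
miR-15a-5p (Mir15a): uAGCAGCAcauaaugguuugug
miR-15b-5p (Mir15b): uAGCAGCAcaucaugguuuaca
miR-16-5p (Mir16-1 and Mir16-2): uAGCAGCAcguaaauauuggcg
miR-195a-5p (Mir195a): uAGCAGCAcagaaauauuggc
miR-497a-5p (Mir497): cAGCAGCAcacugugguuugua

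The seed AGCAGCA stood in all 6 genes, and 11 of the 1738 mature entries in the table carried it, which came to 10 distinct sequences because miR-16-5p is entered for both of its genes. Outside the seed the products fell into miR-15-like and miR-16-like sequences. miR-195a-5p differed from miR-16-5p at 2 of 21 positions, by G10A and U11G, counted from 1 at the 5′ end of miR-16-5p. miR-15a-5p and miR-15b-5p were identical at 18 of 22 positions, against 16 of 22 for miR-15a-5p and its neighbour miR-16-5p. miR-497a-5p was the farthest from miR-16-5p, with 11 of 22 positions identical, and was nearer to miR-15a-5p (17 of 22). The 3′ products had 6 different seeds in the 6 genes.

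Mir16-1 and Mir16-2 make the same 5′ product from different hairpins. The hairpins are shown with the longest run they share in capitals.
Mir16-1 (chr14:61631880-61631972, minus strand): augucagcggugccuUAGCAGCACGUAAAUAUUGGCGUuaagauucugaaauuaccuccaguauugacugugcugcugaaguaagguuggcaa
Mir16-2 (chr3:69009902-69009996, plus strand): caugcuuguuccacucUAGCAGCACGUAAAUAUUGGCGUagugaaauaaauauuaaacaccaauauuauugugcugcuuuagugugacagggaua

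The shared run was 23 bases long and held the whole mature product of 22 bases plus 1 base after it. A read inside this run matches both loci, and reads that match several loci were tallied apart from the gene counts. That tally held 28.2% of all reads in replicate 2 and 28.1% in replicate 1 and is not split by miRNA. The counts of Mir16-1 and Mir16-2 are thus uncertain, and true levels could be higher. The 3′ products of the 2 genes differ, and they are shown because reads of them can be assigned to 1 of the listed hairpins. The seeds are in capitals.
miR-16-1-3p (Mir16-1): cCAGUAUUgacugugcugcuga
miR-16-2-3p (Mir16-2): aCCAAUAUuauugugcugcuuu

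The longest run that either 3′ product shared with another listed hairpin was 11 bases for miR-16-1-3p and 10 bases for miR-16-2-3p. Mir15a, Mir15b, Mir195a and Mir497 shared no 18-base word with any other listed hairpin. The longest run among these 4 was 16 bases, shared by Mir195a with Mir195b. For Mir497 the sequence compared was 125 bases long, while the gene as placed below spans 84 bases. Counts are per hairpin, so the 5′ and 3′ products of a gene were not separated.

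The replicate 2 library held 5102289 sense-strand gene counts and the replicate 1 library 5930074. Levels are given as CPM, counts scaled to 1000000 per library, so that a single count equals 0.196 CPM for replicate 2 and 0.169 CPM for replicate 1. Mir122, the hepatocyte miRNA by which the liver label was checked, held 21.5% of the counts in replicate 2 and 21.3% in replicate 1. The marker miRNAs of red blood cells (Mir144, Mir451a and Mir486) summed to 2.72% of the counts in replicate 2 and 2.41% in replicate 1. Within that list Mir144 and Mir451a were higher in replicate 2, while Mir486 was lower, at 459 CPM in replicate 2 and 727 CPM in replicate 1.

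Together the 6 genes held 1.57% ± 0.04 of the counts (SD, n = 2). Replicate 2 had 1.54% (1.53% to 1.55%) and replicate 1 had 1.60% (1.59% to 1.61%), with exact 95% Clopper-Pearson limits. The limits reflect counting error alone, because they take each read of 1 library as a separate draw. PCR duplicates do not count separate molecules, so the limits may be too narrow. All 6 genes were above 100 CPM in both libraries, and the chromosome 14 pair held most of the counts. It made up 81.5% of the summed counts of the 6 genes in replicate 2 and 77.2% in replicate 1. The chromosome 3 pair made up 16.2% and 20.2%, and the chromosome 11 pair 2.24% and 2.63%. These shares leave out reads inside the run that Mir16-1 and Mir16-2 share.

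Mir15a (ENSMUSG00000093007.1; mm10 chromosome 14, 61632027 to 61632110, minus strand) lies in an intron of the noncoding gene Dleu2. It had 45611 counts in replicate 2 and 52331 in replicate 1, which is 8939 CPM and 8825 CPM. By these counts it was the most abundant of the 6 genes and the least variable. Its level was 8882 ± 81.1 CPM (SD, n = 2, as for all levels below), at rank 30 of all rows. Mir16-1 (ENSMUSG00000092995.1; chromosome 14, 61631880 to 61631972) lies 54 bases downstream and overlaps an exon of Dleu2. It had 18611 counts in replicate 2 and 20673 in replicate 1, at 3567 ± 114 CPM and rank 50. Reads inside the run it shares with Mir16-2 are left out, so its place below Mir15a is uncertain. The SD over the pools was 0.91% of the mean for Mir15a and 3.20% for Mir16-1, against 13.2% to 25.8% for the other 4 genes. This contrast was narrower under TMM scaling, at 4.67% for Mir15a and 6.95% for Mir16-1, against 9.69% for Mir195a, 10.1% for Mir497, 17.0% for Mir16-2 and 22.1% for Mir15b.

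Mir15b (ENSMUSG00000065580.1; chromosome 3, 69009772 to 69009835, plus strand) lies in an intron of Smc4, which codes for a condensin subunit needed to compact mitotic chromosomes. It had 9448 counts in replicate 2 and 15875 in replicate 1, which is 1852 CPM and 2677 CPM. At 2264 ± 584 CPM and rank 59, it was the most variable of the 6 genes. The annotation used here lists this gene as version ENSMUSG00000065580.2, so the boundaries used for counting may differ from those given. Mir16-2 (ENSMUSG00000065606.1; chromosome 3, 69009902 to 69009996) lies 66 bases downstream in the same intron. It had 3346 counts in replicate 2 and 3223 in replicate 1, which is 656 CPM and 544 CPM, with a mean of 600 ± 79.4 CPM and rank 104. The 2 genes of the Smc4 intron lay on opposite sides, with Mir15b lower and Mir16-2 higher in replicate 2.

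Mir195a (ENSMUSG00000065411.2; chromosome 11, 70235042 to 70235135, plus strand) had 872 counts in replicate 2 and 1226 in replicate 1, at 189 ± 25.3 CPM and rank 154. Mir497 (chromosome 11, 70234717 to 70234800, plus strand) lies 241 bases upstream of it. Mir497 has no row of its own and was read from the opposite strand of the row of Mir497b (ENSMUSG00000070109.2), which spans it. It had 895 counts in replicate 2 and 1265 in replicate 1, at 194 ± 26.8 CPM and rank 153. On its own strand, Mir497b had 1 count in replicate 2 and 2 in replicate 1, below the 10 counts over both libraries required for testing. No gene on the same strand overlapped Mir195a or Mir497 in the annotation used.

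The order of the levels was Mir15a, Mir16-1, Mir15b, Mir16-2, Mir497 and Mir195a in both libraries. The ranges over the 2 libraries did not overlap between any neighbours in this order except Mir497 and Mir195a. Mir497 exceeded Mir195a by 1.03-fold in replicate 2 (95% counting interval 0.93 to 1.13) and by 1.03-fold in replicate 1 (0.95 to 1.12), so their order could not be settled. From top to bottom, Mir15a stood 52.3-fold above Mir195a in replicate 2 and 42.7-fold above it in replicate 1. The place of Mir16-1 and Mir16-2 in the order is uncertain because of their shared product.

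**Figure D1:**
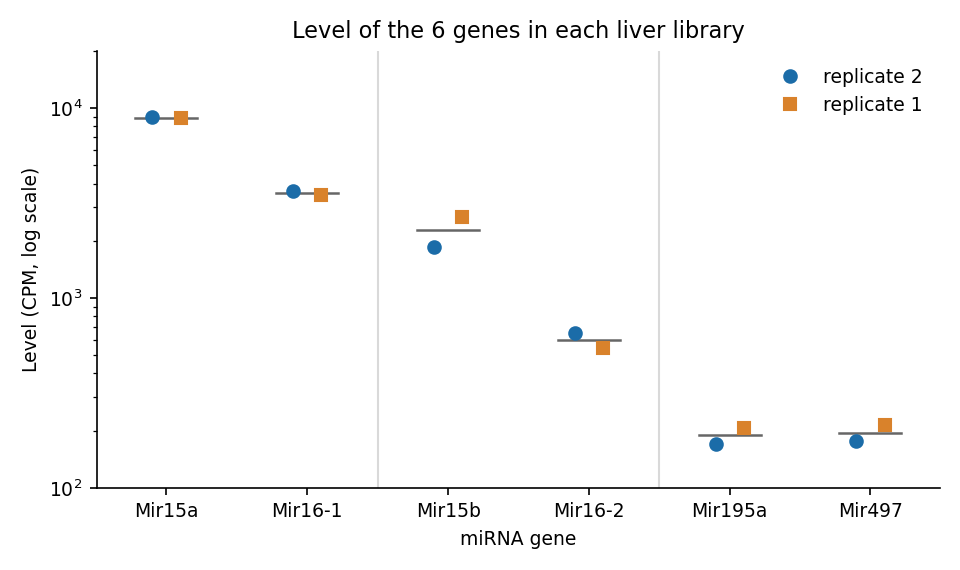
Level of each of the 6 genes in CPM on a log axis, with replicate 2 as circles, replicate 1 as squares and the mean of both as a bar; vertical lines separate the 3 loci. Mir15a sits highest at 8939 and 8825 CPM, Mir195a and Mir497 lowest between 171 and 213 CPM, and the points of Mir15b lie farthest apart in relative terms. Reads inside the run shared by Mir16-1 and Mir16-2 are not counted.

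In level, the genes next to the 6 came from many loci. Mir541 (8926 ± 554 CPM) stood just above Mir15a and Mir144 (8041 ± 1645 CPM) just below it. Mir16-1 stood between Mir429 (3624 ± 897 CPM) and Mir151 (3527 ± 752 CPM), and Mir15b between Mir341 (2270 ± 201 CPM) and Mir433 (2148 ± 649 CPM). Mir301 (610 ± 133 CPM) and Mir210 (594 ± 121 CPM) enclosed Mir16-2. Mir215 (194 ± 257 CPM) and Mir450b (186 ± 0.44 CPM) enclosed the chromosome 11 pair. Likeness here is the difference in mean level over 2 libraries, and the neighbours were picked by it, so their nearness is no result. Mir215 was at 376 CPM in replicate 2 and 12.6 CPM in replicate 1, near the chromosome 11 pair in neither library.

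Of the 5 other gene rows with a mature product of the same seed, 1 was abundant. Mir322, the X-linked relative, had 96060 counts in replicate 2 and 120566 in replicate 1 (19579 ± 1064 CPM, rank 9). Its mature product is shown because it carries the family seed with a different tail.
miR-322-5p (Mir322): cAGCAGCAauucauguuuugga

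The 6 genes held 45.1% of the counts of the 11 seed-sharing rows in replicate 2 and 44.0% in replicate 1, against 54.9% and 56.0% for Mir322. Mir195b had 1 count in replicate 2 and 0 in replicate 1, and Mir6342, Mir6353 and Mir6419 had no count in either library. An observed count of 0 allows an expected count of up to 3, which is 0.588 CPM for replicate 2 and 0.506 CPM for replicate 1. Together the 11 rows came to 3.53% ± 0.14 of the counts. The rows count whole hairpins, so reads of 3′ products with other seeds are included and were not separated. Reads of miR-16-5p that match both loci are in none of these shares, so the part of the 6 genes may be too low.

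**Figure D2:**
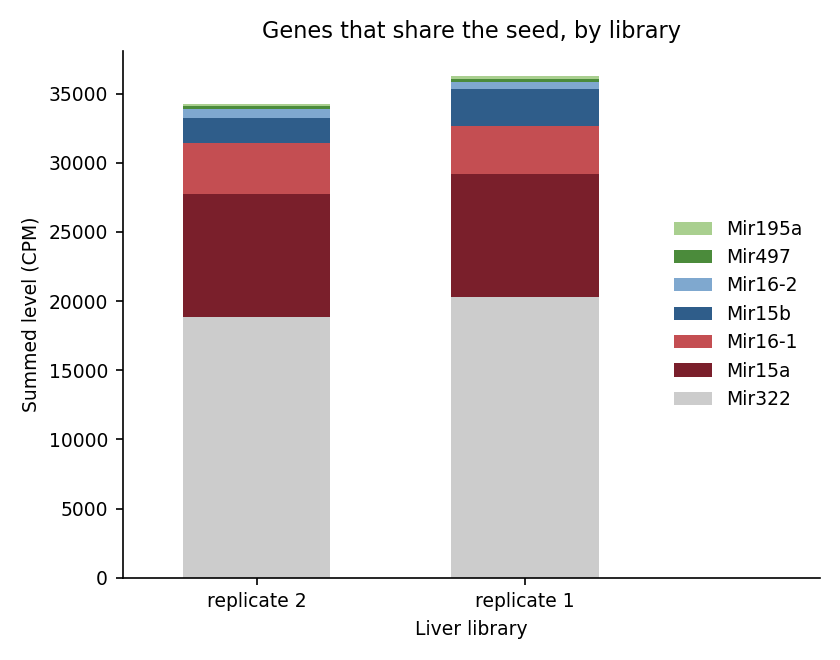
Summed level in CPM of the 7 seed-sharing genes with more than 1 count over both libraries, as stacked bars from 0, with replicate 2 left of replicate 1. Mir322 makes up the largest block in each bar (54.9% and 56.0% of the family), and Mir15a is the largest of the 6 genes by these counts. Reads inside the run shared by Mir16-1 and Mir16-2 are left out.

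Neighbouring miRNA genes are often cut from 1 transcript, so the ratio of their counts was taken within each library. Counts of Mir15a were 2.45 times those of Mir16-1 in replicate 2 and 2.53 times in replicate 1 (log2 ratio 1.32 ± 0.03, SD, n = 2). Mir195a over Mir497 was 0.97-fold in both libraries (log2 -0.04 ± 0.01), with counting intervals that include 1. These 2 loci gave nearly the same ratio in each pool. Mir15b exceeded Mir16-2 by 2.82-fold in replicate 2 (95% counting interval 2.71 to 2.94) and by 4.92-fold in replicate 1 (4.74 to 5.11). On the log2 scale this ratio was 0.80 lower in replicate 2, with a counting SE of the difference of 0.04. Reads inside the run that Mir16-1 and Mir16-2 share are outside the counts of the chromosome 14 and chromosome 3 pairs. The ratio of Mir15a over Mir16-1 is thus not one of all their products. The part of these reads in that ratio, and in the difference for Mir15b over Mir16-2, was not tested. With 2 libraries an exact sign-flip test could not give a two-sided p below 0.5, and none was run. These are ratios of counts, and a capture bias for one sequence over another, equal in both libraries, would leave them just as alike.

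Across loci, the counts of the miR-15 genes and of the miR-16 genes were also unequal. Mir15a had 4.83 times the counts of Mir15b in replicate 2 and 3.30 times in replicate 1 (log2 ratio 2.00 ± 0.39). Mir16-1 had 5.56 times the counts of Mir16-2 in replicate 2 and 6.41 times in replicate 1 (log2 2.58 ± 0.15). In both libraries the chromosome 14 gene had the higher count, while the 2 ratios differed between the libraries in opposite directions. The counts of Mir16-1 and Mir16-2 leave out reads inside their shared run. They thus do not show which locus made more miR-16-5p.

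**Figure D3:**
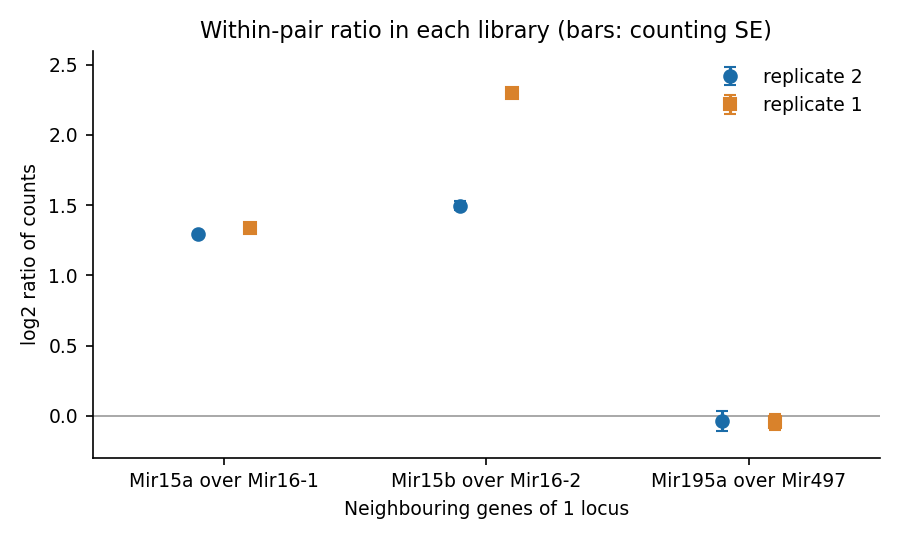
Log2 ratio of counts within each pair of neighbouring genes, with replicate 2 as circles, replicate 1 as squares and bars for the counting SE. The ratios of the chromosome 14 and chromosome 11 pairs nearly coincide between libraries, while Mir15b over Mir16-2 is 2.82-fold in replicate 2 and 4.92-fold in replicate 1.

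To place these ratios, all pairs of neighbouring miRNA genes on 1 strand less than 1000 bases apart were taken, with at least 10 counts per gene over both libraries. The 75 pairs had a median absolute log2 ratio of 3.06, with a range of 0.03 to 9.90. The ratios of the 3 loci, at 1.32, 1.90 and 0.04 in absolute value, were all below that median. Reads that match several loci are left out of the counts of every pair, and their part in the median and range was not tested. Genes in the middle of a cluster, such as Mir19b-1, stand in more than 1 pair, so the pairs are not independent. Among the 36 pairs with every count at 500 or more, a limit chosen after the values were seen, the median was 2.02, close to the 1.90 of Mir15b over Mir16-2. Between the libraries, the pair ratio differed by a median of 0.22 on the log2 scale, and 7 of the 75 pairs differed by more than Mir15b and Mir16-2. Among the 36 pairs with every count at 500 or more, the median difference was 0.12 and none differed by more. In the named pairs of other loci, the log2 ratio of Mir451a over Mir144 was 0.93 in replicate 2 and 1.26 in replicate 1, and that of Mir192 over Mir194-2 was 1.36 and 1.29.

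**Figure D4:**
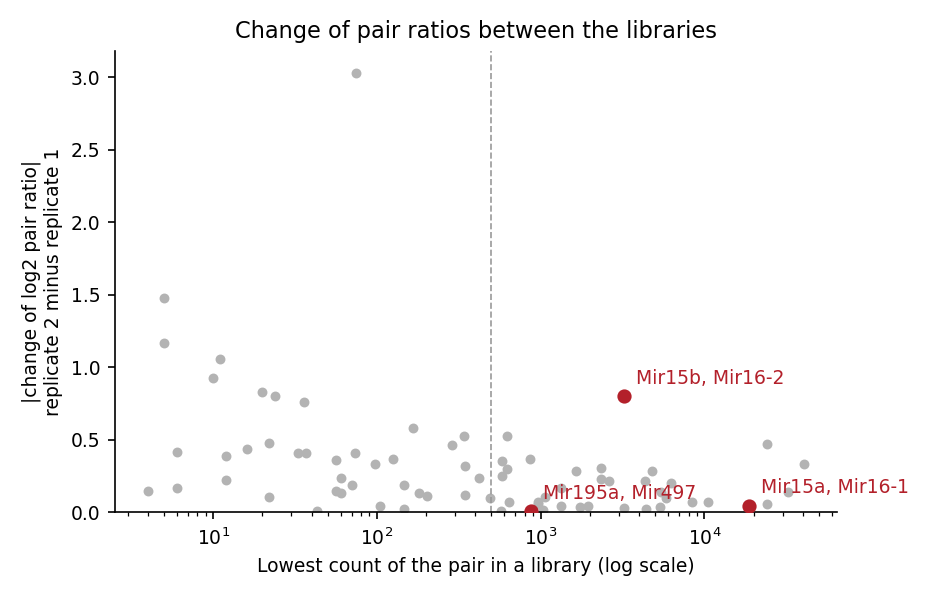
Absolute change of the log2 pair ratio between the libraries for the 75 neighbouring pairs, against the lowest count of the pair on a log axis; the dashed line marks 500 counts. The pair of Mir15b and Mir16-2 lies at 0.80, above all other pairs to the right of the line, and the pairs of Mir15a with Mir16-1 and Mir195a with Mir497 lie at 0.05 and 0.01.

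Whether the counts of single genes differed between the libraries was asked with an exact conditional binomial test on the counts, two-sided and adjusted by the Benjamini-Hochberg method over all 441 genes with 10 or more counts. The test compares 2 libraries and not conditions. With 1 library per pool its p-values cover counting error only, and a difference between pools cannot be told apart from one between library preparations. All 6 genes passed the count filter, and 5 of the 6 differed at an adjusted p under 0.05, against 44.7% of all tested genes and 79.3% of the 184 genes at 100 CPM or more. The count of 5 is near the background of genes at this level. By size, none of the 6 reached 1.5-fold, against 22.2% of tested genes and 5.43% of the 184 genes at 100 CPM or more, so this is near the background of their level too. The median log2 ratio of replicate 2 over replicate 1 was -0.13 over the 6 genes and -0.08 over all tested genes.

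Of the 5, Mir15b, Mir195a and Mir497 were lower in replicate 2, a direction called in 27.2% of tested genes, and Mir16-1 and Mir16-2 were higher, called in 17.5%. Mir15b had the largest difference, with a log2 ratio of -0.53 (counting SE 0.02, exact binomial adjusted p = 2.83e-180). Among the 184 genes at 100 CPM or more, 15 had an absolute ratio at least as large, Mir15b included. Mir16-2 was higher by 0.27 on the log2 scale (counting SE 0.04, exact binomial adjusted p = 1.38e-13), a size reached by 70 of those genes.

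Mir195a and Mir497 moved by nearly the same amount, with log2 ratios of -0.27 and -0.28 (counting SE 0.06 each, exact binomial adjusted p = 5.60e-05 and 2.33e-05). Mir16-1 was higher by 0.07 (counting SE 0.01, exact binomial adjusted p = 2.46e-05), and by 0.14 under either TMM scaling or DESeq2 size factors. Mir15a, with a log2 ratio of 0.02, did not pass (exact binomial adjusted p = 0.089), but passed with the same sign under TMM scaling (log2 0.10, adjusted p = 4.75e-24) and under DESeq2 size factors (log2 0.09, adjusted p = 1.46e-22). The directions and calls of the other 5 held under both scalings, with TMM log2 ratios of -0.46 for Mir15b, 0.35 for Mir16-2, -0.20 for Mir195a and -0.21 for Mir497. Over all genes, 77 were called higher and 120 lower in replicate 2, against 96 and 99 under either scaling.

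Markers of other cell types and tissues also differed between the pools, to unlike degrees. The endothelial marker Mir126a held 4.85% of the counts in replicate 2 and 4.55% in replicate 1. Mir223, the leukocyte marker with a row, held 1.75% in replicate 2 and 1.68% in replicate 1. The 2 mesenchymal markers, each higher in replicate 2, summed to 1.75% there and 1.53% in replicate 1. The 5 epithelial and biliary markers, all higher in replicate 2, summed to 6376 CPM there and 4266 CPM in replicate 1. The muscle markers with a row summed to 2114 CPM in replicate 2 and 1155 CPM in replicate 1, with 3 of 4 higher in replicate 2. Nearly all of the muscle sum was Mir206, at 2050 CPM in replicate 2 and 1104 CPM in replicate 1. Mir133b was lower in replicate 2, at 12.2 CPM against 14.8 CPM in replicate 1. The 4 pancreas markers summed to 2105 CPM in replicate 2 and 1395 CPM in replicate 1, with 3 of 4 higher in replicate 2; nearly all of this was Mir375, at 2086 CPM and 1378 CPM. The neural markers with a row summed to 134 CPM in replicate 2 and 114 CPM in replicate 1, with 1 of 2 higher in replicate 2. The part of these cell types and tissues in the levels of the 6 genes was not tested.

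**Figure D5:**
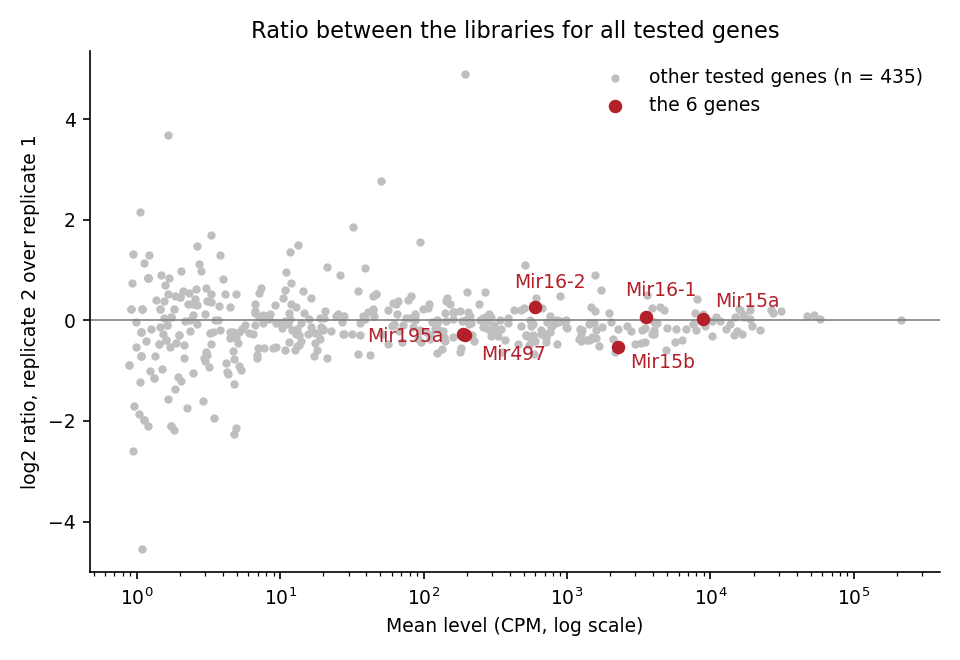
Log2 ratio of replicate 2 over replicate 1 against mean level in CPM on a log axis, for the 6 genes (red) and the other 435 tested genes (grey). Mir15b lies lowest of the 6 at -0.53 and Mir16-2 highest at 0.27, both within the spread of the grey points, and Mir15a lies at 0.02.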

How the data were processed

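MicroRNA libraries of whole mouse liver at embryonic day 16.5 were analysed from raw read counts per gene, as deposited for each library. The text deposited with the counts names assembly mm10 and, as annotation, GENCODE M4. Not given in the sources used here are the aligner, the counting program and any use of molecular identifiers. Tally rows, which name no gene, held 54.4% of the reads in replicate 2 and 54.3% in replicate 1 and entered neither totals nor tests.

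Of 3 count columns, the sense-strand column (column 3) was used, and column 4 for the row of Mir497b. Names and positions came from GENCODE M21 by versionless identifier (1894 of 1973 rows), and sequences from RefSeq (GRCm38.p6). Hairpins were compared with the GENCODE M21 transcripts. Log2 ratios were computed after adding 0.5 to each count, with counting SEs. A quasi-likelihood test has no contrast within 1 group, so an exact conditional binomial test was used (scipy 1.17.1), tested on simulated data. Scaling alternatives used edgeR 4.0.16 and DESeq2 1.42.0. Genes other than the 6 were named by rule: seed relatives, the next gene above and below in level, Mir122, and the pairs of Mir451a with Mir144 and Mir192 with Mir194-2; marker miRNAs came from fixed lists. The members, lists and rules were chosen with earlier results of these data known. Replicate numbers come from the labels, which call the libraries biological replicates.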

Additional observations from a re-analysis of the deposited data

How the results depend on the processing

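Of 108 alternative values, 22 were set aside because they could not leave the limits set. Of these, 20 leave out 1 of 2 libraries, which always gives a value within 1 SD. The other 2 change the strand for pairs with no other-strand counts. Of the other 86, 62 stayed within 1 SD, kept their call or, for counts of genes, stayed within 1.5 times the count given. Among these 62 are the library ratios with an added count of 0 or 1. Their calls could not change either, because the test does not use the added count. With 1 replicate left out, which is the value of the other library, the within-pair log2 ratio was 1.29 to 1.34 for Mir15a over Mir16-1, 1.497 to 2.300 for Mir15b over Mir16-2 and -0.05 to -0.04 for Mir195a over Mir497. No paired analysis was possible because there is 1 group.

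Levels moved with the total used as denominator. The summed share was 1.44% with counts irrespective of strand or with both strand totals added, 2.00% without Mir122 in the total and 0.658% of all reads tallied. Without Mir122, the levels were 11299 CPM for Mir15a, 4538 for Mir16-1, 2880 for Mir15b, 763 for Mir16-2, 240.2 for Mir195a and 247 for Mir497. Over all reads tallied they were 3723, 1495, 949, 251, 79.2 and 81.5 in the same order. With counts irrespective of strand or both totals added, Mir15a was at 8156 and Mir16-1 at 3275 CPM.

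The call of Mir15a changed under TMM scaling (log2 0.095) and DESeq2 size factors (0.092). The number of genes at 1.5-fold or more was 98 of 441, 316 of 708 without a count filter and 27 of 285 at 100 counts or more, and none of these held any of the 6 genes. The chromosome 11 pair rested on 872 to 1265 counts per gene and library.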

Other observations

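Near relatives of the seed were also present. miR-107-3p and miR-103-3p begin with the 7 letters of the family seed 1 base earlier, so the motif (in capitals) fills bases 1 to 7.
miR-107-3p (Mir107): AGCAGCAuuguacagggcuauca
miR-103-3p (Mir103-1 and Mir103-2): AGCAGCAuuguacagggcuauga

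Mir107 had 7100 counts in replicate 2 and 10570 in replicate 1 (1587 ± 276 CPM, rank 68), a level between those of Mir15b and Mir16-2. Its log2 ratio of replicate 2 over replicate 1 was -0.36 (counting SE 0.02, exact binomial adjusted p = 2.47e-58). Mir103-2 had 348 and 318 counts and Mir103-1 had 14 and 13, in replicates 2 and 1. These 2 genes make 1 mature product, as Mir16-1 and Mir16-2 do, and their counts are likewise uncertain and may be too low. Mir503, the neighbour of Mir322, shares bases 2 to 7 of the seed and was at 431 ± 41.9 CPM (rank 121). These genes were chosen after the values of the family had been seen.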
